A study of Homo sapiens with 6 samples.

Results

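The FGF receptors, ligands and coreceptor examined here are 10 genes, taken by gene symbol from the deposited table of 23569 genes. They are the receptor genes FGFR1, FGFR2, FGFR3 and FGFR4, the receptor-like gene FGFRL1, the ligand genes FGF2 and FGF19, the ligand carrier gene FGFBP1, the coreceptor gene KLB and the adaptor gene FRS2. The table listed 10 of the 10 symbols. RNA-seq was performed in TFK1 cells, a human line from an extrahepatic bile duct carcinoma, with 3 libraries of negative control cells (oeNC) and 3 libraries of cells with STUB1 overexpression (oeSTUB1). STUB1 encodes a chaperone-dependent E3 ubiquitin ligase. By the study's methods both kinds of cells were made by lentiviral infection and puromycin selection. No further treatment of the cells used for RNA-seq is described. The labels do not say whether the libraries of a group came from separate cultures. Each group is therefore, as far as these sources tell, 1 selected population, so that the effects of selecting a population and of STUB1 cannot be told apart, and p-values measure the spread between libraries.

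Fibroblast growth factors are secreted proteins that bind receptor tyrosine kinases at the cell surface together with heparan sulfate. FGF2 is a paracrine ligand that needs heparan sulfate, whereas FGF19 is an endocrine ligand that needs the coreceptor beta-Klotho, encoded by KLB, and acts mainly through FGFR4. In the liver and bile duct the FGF19, FGFR4 and KLB proteins are known for the feedback control of bile acid synthesis, and rearrangements of FGFR2 are a known driver of intrahepatic cholangiocarcinoma. FGFRL1 lacks the kinase domain of the other receptors, FRS2 couples activated receptors to the RAS cascade, and FGFBP1 releases FGF2 from the matrix.

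Expression was given by the authors as FPKM, the fragments on a gene scaled to gene length and to the library total. Library totals, recovered from the steps of the FPKM values, lay between 33106564 and 36744521 fragments. Levels of different genes can be compared only as far as the gene lengths used are right. The lengths recovered in the same way were 8637 bases for FGFR2, 7668 for FGFR1 and 4937 for FGFRL1. Their longest GENCODE transcripts have 4369, 6216 and 3639 bases. For FGFR3, FGFR4 and FGF2 the recovered lengths were 4469, 3167 and 6775 bases, against 4438, 3122 and 6775. Sums, shares and orders of genes depend on these lengths. STUB1 itself was at 30.9 to 33.0 FPKM in the oeNC libraries and at 61.4 to 75.0 FPKM in the oeSTUB1 libraries. oeSTUB1 replicate 2 stood apart from the other oeSTUB1 libraries, with chi-square values per degree of freedom of 82.6 and 76.7 against them, where the other pairs of replicates gave 3.48 to 10.4, and its difference from them fell with gene length (Spearman rho across 15353 genes -0.56, genes not being independent replicates). Of 8 markers of biliary epithelium, KRT7, KRT8 and KRT18 were among the most abundant genes, but KRT19, a defining marker, was at 0.374 to 0.529 FPKM in oeNC cells, against 2.51 to 3.41 FPKM in oeSTUB1 cells. The summed FPKM of the 8 markers, mostly KRT8 and KRT18, lay at 7420 to 7996 in the oeNC and at 4724 to 6264 in the oeSTUB1 libraries. The markers of fibroblasts summed to 1.31 to 2.36 and 2.16 to 4.05 FPKM, those of endothelium to 0.0713 to 0.0973 and 0.0974 to 0.231 FPKM, those of hepatocytes to 94.5 to 100.4 and 33.5 to 52.8 FPKM (nearly all CPS1, with ALB at most at 0.0512), and those of immune cells to 27.1 to 27.8 and 19.5 to 19.7 FPKM (nearly all CD68, with PTPRC at most at 0.280). Of the biliary markers 1 rose (KRT19) and 4 fell (KRT8, KRT18, EPCAM and CDH1), and 1 of 2 tested hepatocyte markers and 1 of 2 tested immune markers fell, where 13.6% of all genes tested changed. KRT7, SOX9 and CLDN4 had log2 fold changes of 0.47, -0.23 and 0.90 that did not pass the test (limma adjusted p = 0.082, 0.25 and 0.10). The tested fibroblast markers LUM and COL1A1 had log2 fold changes of -1.03 and 0.75 (limma adjusted p = 0.083 and 0.12) and the tested endothelial marker PECAM1 had 0.37 (limma adjusted p = 0.49), by the test described below. The part of these marker differences in the results on FGF genes was not tested.

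The expression of FGFR1, FGFR2, FGFR3 and FGFR4 fell after STUB1 overexpression, each to between 0.392 and 0.513 of its oeNC mean, whereas that of FGF2 rose 1.81-fold. In bulk RNA, fewer cells that express a gene and less of its RNA per cell cannot be told apart. No significant change was detected for FGFRL1, FRS2, KLB or FGFBP1, and FGF19 was too low to be tested. The test was limma on log2(FPKM + 0.1), and genes are called changed where the p-value, after Benjamini-Hochberg adjustment, was under 0.05 among the 15353 genes whose mean reached 0.1 FPKM over the 6 libraries. The filter passed 9 of the 10 genes, of which 5 changed, 4 downwards and 1 upwards. Over all genes tested 13.6% changed, 6.59% downwards and 7.01% upwards. In 7 of the 9 genes the 3 values of one group all lay on one side of the 3 values of the other, as they did in 38.8% of all genes tested. The median log2 fold change was -0.55 over the 9 genes and 0.02 over all genes tested. On this scale the pseudocount of 0.1 makes the changes of genes below about 1 FPKM look smaller than they are.

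**Figure D1:**
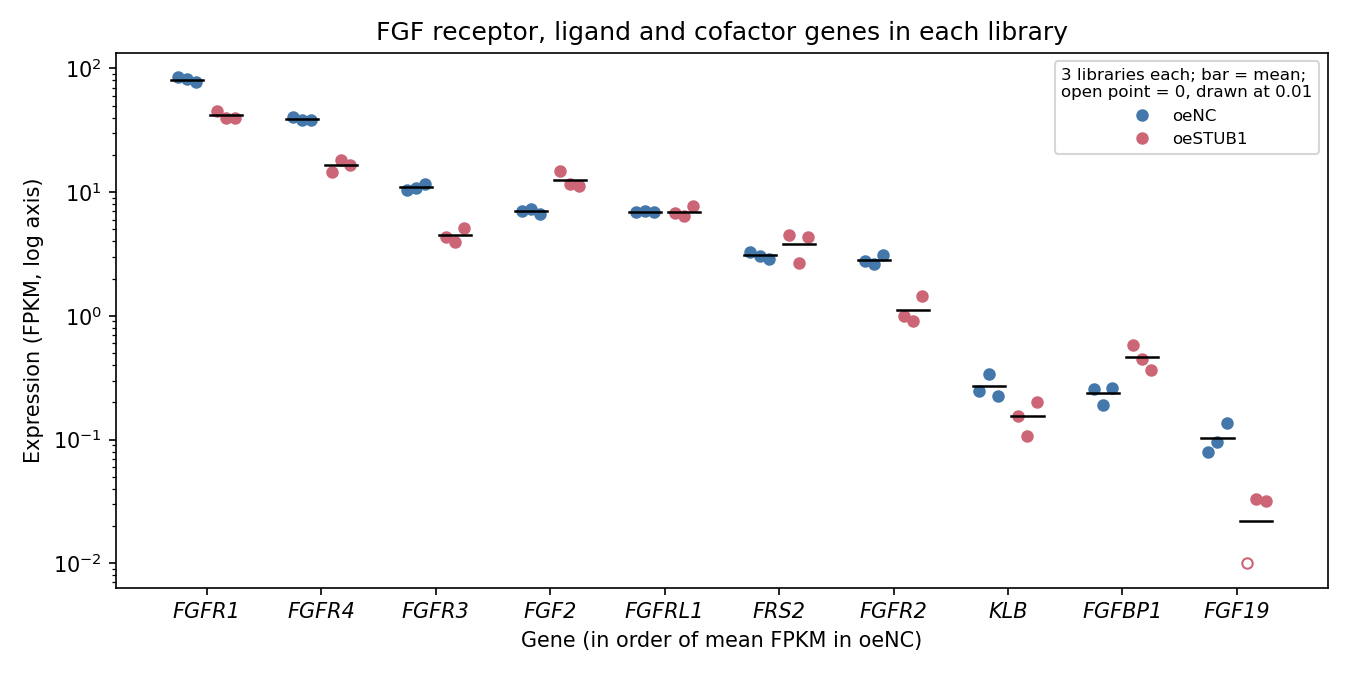
Expression of the 10 genes in each library, as FPKM on a log axis, with 3 oeNC libraries (blue) and 3 oeSTUB1 libraries (red) per gene and a bar at each mean; the open point is a value of 0 drawn at 0.01. For FGFR1, FGFR2, FGFR3 and FGFR4 the oeSTUB1 points lie below all oeNC points, for FGF2 they lie above them, and for FGFRL1 and FRS2 the groups overlap.

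FGFR1 was the most abundant of the 10 genes in both groups. By GENCODE release 29 (GRCh38) the gene spans 38400215 to 38468834 of chromosome 8, minus strand. Its expression was 84.7, 81.6 and 77.6 FPKM in oeNC replicates 1, 2 and 3, and 45.6, 39.7 and 39.8 FPKM in oeSTUB1 replicates 1, 2 and 3. The groups were far apart, since the lowest oeNC library was well above the highest oeSTUB1 library. The mean fell from 81.3 ± 3.56 to 41.7 ± 3.38 FPKM (SD, n = 3 libraries each), with a log2 fold change of -0.96 (standard error 0.085, limma adjusted p = 0.00049). In oeNC cells FGFR1 ranked 588 among all 23569 genes listed. Its exons share 138 bases with LETM2 on the opposite strand, a gene with means of 0.529 FPKM (oeNC) and 0.535 FPKM (oeSTUB1).

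FGFR4, the receptor through which FGF19 acts in hepatocytes, was the next in order. It lies on chromosome 5 from 177086886 to 177098144 on the plus strand. The oeNC libraries had 40.2, 38.5 and 38.6 FPKM, and the oeSTUB1 libraries had 14.5, 18.1 and 16.7 FPKM. All 3 oeSTUB1 libraries were below 0.5 times the lowest oeNC value. The mean fell from 39.1 ± 0.915 to 16.4 ± 1.79 FPKM (SD, n = 3 each), which is 2.38-fold lower, with a log2 fold change of -1.25 (standard error 0.094, limma adjusted p = 0.00026), the smallest p-value among the 9 genes. These values rest on 4230 to 4492 fragments per oeNC library and 1586 to 1897 fragments per oeSTUB1 library.

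FGFR3 lies on chromosome 4 from 1793293 to 1808872 on the plus strand. Its values were 10.4, 10.8 and 11.6 FPKM in oeNC libraries and 4.35, 3.95 and 5.11 FPKM in oeSTUB1 libraries. The highest oeSTUB1 library was again below every oeNC library. FGFR3 was 2.45-fold lower, with a log2 fold change of -1.28 (standard error 0.11, limma adjusted p = 0.0005).

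FGFR2 was the least abundant receptor. It lies on chromosome 10 from 121478334 to 121598458 on the minus strand. Its values were 2.79, 2.64 and 3.10 FPKM in oeNC libraries and 0.998, 0.906 and 1.44 FPKM in oeSTUB1 libraries. The groups did not overlap, but oeSTUB1 replicate 3 was higher than the other oeSTUB1 libraries. FGFR2 was 2.55-fold lower, with a log2 fold change of -1.30 (standard error 0.18, limma adjusted p = 0.0031). Gene-level FPKM does not separate the FGFR2 splice forms that bind epithelial or mesenchymal ligands. The splicing regulators that favour the epithelial form, ESRP1 and ESRP2, were at most at 0.0816 and 0.0212 FPKM in any library. The splicing regulators RBFOX2 and PTBP1, also examined, had log2 fold changes of -0.11 and 0.02 (limma adjusted p = 0.60 and 0.90).

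An absolute log2 fold change over 1 along with an adjusted p-value under 0.05 was reached by FGFR2, FGFR3 and FGFR4, 3 of the 9 genes, against 5.20% of all genes tested. FGFR1 stayed just short of 1, but passed it without oeSTUB1 replicate 1 (-1.03) and with quantile normalization (-1.05). FGFR2 was short of 1 with a pseudocount of 1 (-0.87). Of all genes tested, 1.51%, 1.54%, 1.65% and 3.26% had a lower log2 fold change than FGFR2, FGFR3, FGFR4 and FGFR1, respectively. Without oeSTUB1 replicate 2, the log2 fold changes of FGFR1, FGFR2, FGFR3 and FGFR4 were -0.93, -1.18, -1.20 and -1.32, all with an adjusted p-value under 0.05.

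**Figure D2:**
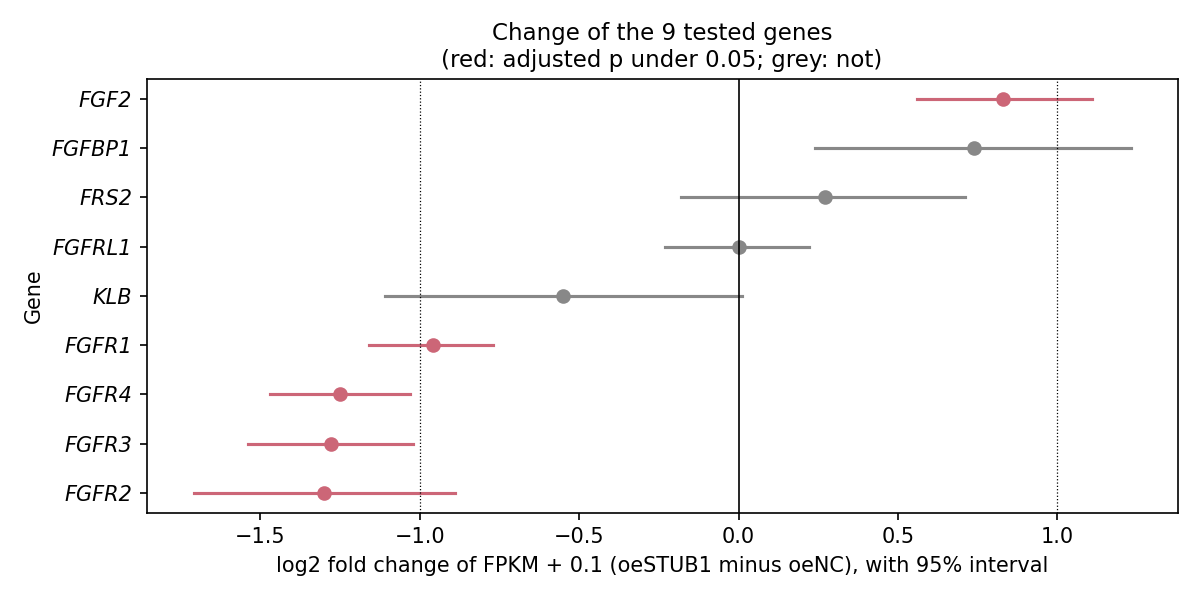
log2 fold change of the 9 tested genes (oeSTUB1 minus oeNC, on the scale of log2(FPKM + 0.1)) with 95% intervals from limma; red marks an adjusted p-value under 0.05 and dotted lines mark -1 and 1. The 4 receptor genes lie between -1.30 and -0.96 and their intervals overlap, FGFRL1 sits at 0, and FGF2 lies at 0.83.

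The 4 receptors fell together, and the sequences before the annotated starts of FGFR2, FGFR3 and FGFR4 are shown because the study was concerned with genes silenced by methylation of their promoters, which acts on CpG dinucleotides. Methylation was not analysed here. Sequences and windows are from RefSeq (GRCh38.p14), each stretch ends before the first annotated base of the gene, it is written 5′ to 3′ on the strand of the gene, and the capitals mark CpG. FGF2 is shown for comparison because it rose.
FGFR2 (chr10:121598459-121598694, minus strand): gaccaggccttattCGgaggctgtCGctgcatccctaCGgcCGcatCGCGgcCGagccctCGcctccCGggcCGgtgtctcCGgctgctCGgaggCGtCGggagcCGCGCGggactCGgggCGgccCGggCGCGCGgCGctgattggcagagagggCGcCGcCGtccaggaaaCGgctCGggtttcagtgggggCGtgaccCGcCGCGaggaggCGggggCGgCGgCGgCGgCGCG
FGFR3 (chr4:1793043-1793292, plus strand): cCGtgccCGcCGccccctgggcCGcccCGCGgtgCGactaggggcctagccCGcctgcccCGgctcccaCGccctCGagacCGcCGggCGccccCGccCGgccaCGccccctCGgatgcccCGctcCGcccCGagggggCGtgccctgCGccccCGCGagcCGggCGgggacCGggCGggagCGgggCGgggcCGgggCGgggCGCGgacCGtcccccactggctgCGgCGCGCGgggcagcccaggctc
FGFR4 (chr5:177086665-177086885, plus strand): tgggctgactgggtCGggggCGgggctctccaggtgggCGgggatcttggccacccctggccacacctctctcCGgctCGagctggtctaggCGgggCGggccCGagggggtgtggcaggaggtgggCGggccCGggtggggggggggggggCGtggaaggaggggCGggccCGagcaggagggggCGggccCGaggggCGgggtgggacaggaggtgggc
FGF2 (chr4:122826581-122826681, plus strand): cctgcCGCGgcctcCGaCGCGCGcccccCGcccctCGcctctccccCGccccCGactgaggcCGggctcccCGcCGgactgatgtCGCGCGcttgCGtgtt
In windows of 300 bases, from 250 before to 50 after a RefSeq start, FGFR2 held 52 CpG, FGFR3 51, FGFR4 30 and FGF2 41. Over the 27305 genes with such a window the median was 13. As many or more CpG were held by 0.787% of these windows for FGFR2, 1.00% for FGFR3, 22.0% for FGFR4 and 6.54% for FGF2. FGFRL1, FRS2, KLB and FGFBP1, for which no change was detected, held 25, 18, 6 and 3. As many or more CpG were held by 31.6%, 44.3%, 65.6% and 81.0% of the windows, respectively. FGFRL1 and FRS2 were therefore above the median too, as were the genes that fell and the gene that rose. Such a start can lie within the gene as spanned by GENCODE. The FGFRL1 window (chr4:1012214-1012513) lies wholly within the gene, which begins at 1009936. Most of the FGF2 window (chr4:122826581-122826880) lies within FGF2, which begins at 122826708. The GC box GGGCGG, searched on both strands (CCGCCC on the other), occurred 5, 8, 7 and 3 times in the windows of FGFR2, FGFR3, FGFR4 and FGF2, and at least once in 44.5% of all windows. In FGFRL1, FRS2, KLB and FGFBP1, for which no change was detected, it occurred 4, 3, 0 and 0 times. Such a match is a description of the sequence. FGFR1 and FGF19 had no window in the table.

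Summed over FGFR1 to FGFR4, receptor expression was 138.0, 133.6 and 131.0 FPKM in the oeNC libraries and 65.5, 62.6 and 63.1 FPKM in the oeSTUB1 libraries. The sums of the groups were thus well separated and tight within each group. The mean sum was 2.11-fold lower in oeSTUB1 cells (134.2 ± 3.57 against 63.7 ± 1.54 FPKM, SD, n = 3 each, exact two-sided permutation p = 0.1, below which 3 libraries against 3 cannot go). FGFR1 made up 61.4%, 61.1% and 59.3% of the sum in oeNC libraries and 69.6%, 63.4% and 63.1% in oeSTUB1 libraries. The share of FGFR4 was 29.1%, 28.8% and 29.5% in oeNC and 22.2%, 28.9% and 26.5% in oeSTUB1 libraries, so that oeSTUB1 replicate 1 had the lowest FGFR4 share and the highest FGFR1 share. FGFR3 contributed 7.52% to 8.90% in oeNC and 6.30% to 8.10% in oeSTUB1 libraries, and FGFR2 1.98% to 2.37% and 1.45% to 2.28%. These shares depend on the gene lengths used, and those of FGFR2 and FGFR1 exceeded their longest GENCODE transcripts. The groups overlapped in the shares of FGFR2, FGFR3 and FGFR4, and none of the 4 shares differed significantly (two-sided exact permutation test, p from 0.1 to 0.3, adjusted p = 0.3 for each of the 4), in a design that cannot reach 0.05.

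**Figure D3:**
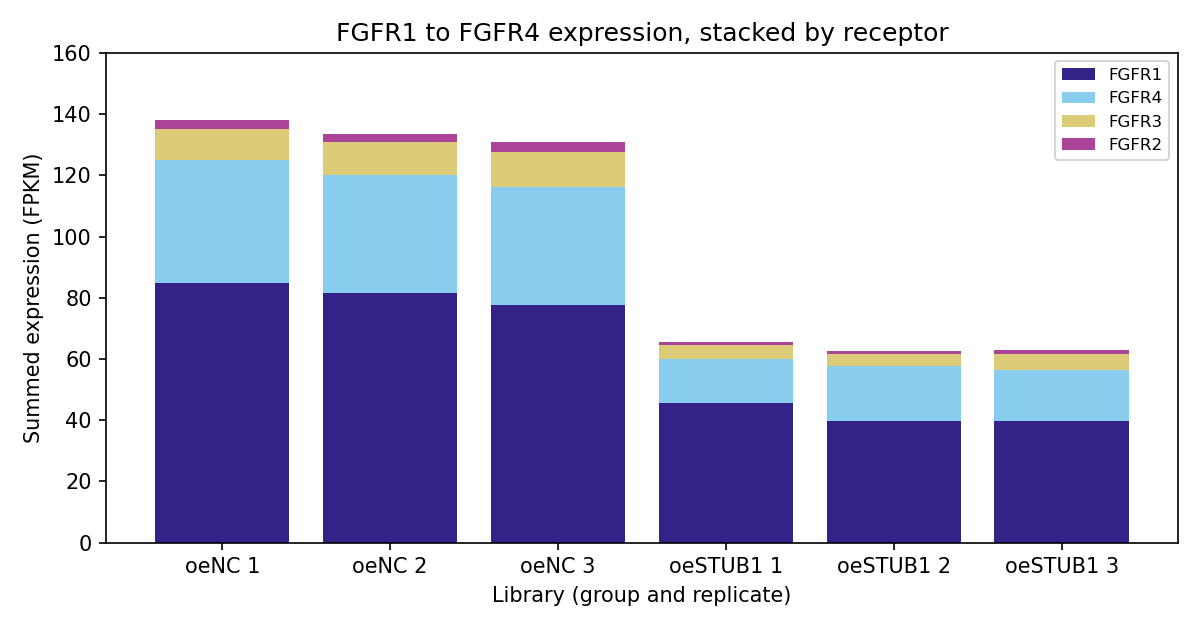
Expression of FGFR1, FGFR4, FGFR3 and FGFR2 in FPKM, stacked for each of the 6 libraries, with the axis starting at 0. The oeNC bars reach 131.0 to 138.0 FPKM and the oeSTUB1 bars 62.6 to 65.5 FPKM, and FGFR1 is the largest segment in each library.

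The receptor-like gene FGFRL1, on chromosome 4 from 1009936 to 1026897, did not follow the 4 kinase receptors. Its values were 6.95, 7.04 and 6.85 FPKM in oeNC and 6.72, 6.36 and 7.76 FPKM in oeSTUB1 libraries. The oeSTUB1 libraries lay on both sides of the oeNC libraries. The 95% interval of its log2 fold change ran from -0.23 to 0.22 (limma adjusted p = 0.98), so that a fall as large as that of any of the 4 receptors lay outside it.

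FGF2 encodes a ligand of FGFR1 and other receptors. It lies on chromosome 4 from 122826708 to 122898236 on the plus strand. Its values were 6.99, 7.37 and 6.65 FPKM in oeNC libraries and 14.9, 11.7 and 11.3 FPKM in oeSTUB1 libraries. Each oeSTUB1 library was above every oeNC library, and oeSTUB1 replicate 1 was the highest. The mean rose from 7.00 ± 0.359 to 12.7 ± 1.98 FPKM (mean ± SD, n = 3 each), a log2 fold change of 0.83 (standard error 0.12, limma adjusted p = 0.0038). Without oeSTUB1 replicate 2 it was 0.88 (limma adjusted p = 0.0022). The exons of FGF2 share 804 bases with those of NUDT6 on the opposite strand. Whether fragments were counted by strand is not given in the sources used here. NUDT6 had means of 4.52 FPKM (oeNC) and 4.68 FPKM (oeSTUB1), with a log2 fold change of 0.04 (limma adjusted p = 0.89).

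With FGF2 higher and FGFR3 lower, these genes changed places in the order of levels, whereas FGFR1 stayed above FGF2 in both groups. In oeNC cells FGF2 came after FGFR1, FGFR4 and FGFR3 in FPKM, and its libraries overlapped with those of FGFRL1. In oeSTUB1 cells FGF2 came after FGFR1 and FGFR4 only, with a range of 11.3 to 14.9 FPKM that overlapped with that of FGFR4, 14.5 to 18.1 FPKM, and above FGFRL1 and FGFR3. The ratio of FGF2 to FGFR1 in FPKM, computed after the values had been seen, was 0.0825, 0.0902 and 0.0857 in oeNC libraries and 0.327, 0.295 and 0.284 in oeSTUB1 libraries. FGFR2 and FRS2 overlapped in oeNC cells, and FGFR3 and FRS2 in oeSTUB1 cells, as did KLB and FGFBP1 in oeNC cells.

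FGFBP1, on chromosome 4 from 15935569 to 15938740, encodes the carrier protein that frees FGF2 from heparan sulfate. It was low, at 0.256, 0.192 and 0.262 FPKM in oeNC and 0.580, 0.447 and 0.368 FPKM in oeSTUB1 libraries, from 9 to 13 and from 17 to 27 fragments. Although each oeSTUB1 library was above each oeNC library, the log2 fold change of 0.74 did not pass the test (limma adjusted p = 0.061). It passed with quantile normalization (limma adjusted p = 0.045) and without an intensity trend (limma adjusted p = 0.037), with adjusted p-values from 0.037 to 0.20 over all alternatives.

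FGF19 and KLB, the ligand and the coreceptor of the bile acid pathway, were both low, and FGF19 was near the limit of detection. FGF19, on chromosome 11 from 69698232 to 69704642, had 5, 6 and 9 fragments in oeNC libraries and 0, 2 and 2 fragments in oeSTUB1 libraries, which is 0.0791, 0.0951 and 0.135 FPKM against 0, 0.0332 and 0.0321 FPKM. No oeSTUB1 library had more than the 3 fragments per library set as the counting floor, worth 0.0478 to 0.0498 FPKM. The oeNC mean was 2.12 times the mean of that floor. This ratio takes the oeNC mean, from few fragments, as exact, so that it is not a lower bound on the change. FGF19 was not tested because its mean FPKM was under 0.1. In a fit of all 23569 genes without that filter its log2 fold change was -0.74 (limma adjusted p = 0.046).

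KLB, on chromosome 4 from 39406853 to 39451536, had 0.245, 0.336 and 0.227 FPKM in oeNC and 0.155, 0.106 and 0.200 FPKM in oeSTUB1 libraries. These came from 50 to 70 and 21 to 41 fragments, and every oeSTUB1 library was below every oeNC library. Its log2 fold change, -0.55, did not pass the test (95% interval -1.11 to 0.01, limma adjusted p = 0.17), nor did it under any alternative tried (limma adjusted p between 0.10 and 0.45).

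FRS2, on chromosome 12 from 69470349 to 69579789, encodes the docking protein that FGF receptors phosphorylate. Its values were 3.28, 3.05 and 2.89 FPKM in oeNC and 4.46, 2.66 and 4.30 FPKM in oeSTUB1 libraries. Replicates 1 and 3 of oeSTUB1 were above all oeNC libraries, and replicate 2 was below them. The log2 fold change was 0.27 (limma adjusted p = 0.40). Without oeSTUB1 replicate 2, the library in which long genes were lower, it was 0.50 (limma adjusted p = 0.0065). FRS2 has a recovered length of 7306 bases, where the median of the genes tested is 3694, and the part of gene length in this difference was not tested.

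Beyond these 10 genes, 109 genes of the pathway were examined in 10 lists. Of these, 101 were listed and 72 were tested, and 6 rose and 9 fell, or 20.8% of those tested where 13.6% of all genes changed. Their median log2 fold change was -0.04. The number of changed genes was 28 without oeSTUB1 replicate 2 and 9 without oeNC replicate 3, and the number over all genes moved in these fits from 2088 to 4118 and to 1036. Genes with an absolute log2 fold change of at most 1 that are named below were chosen after their values were seen.

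**Figure D4:**
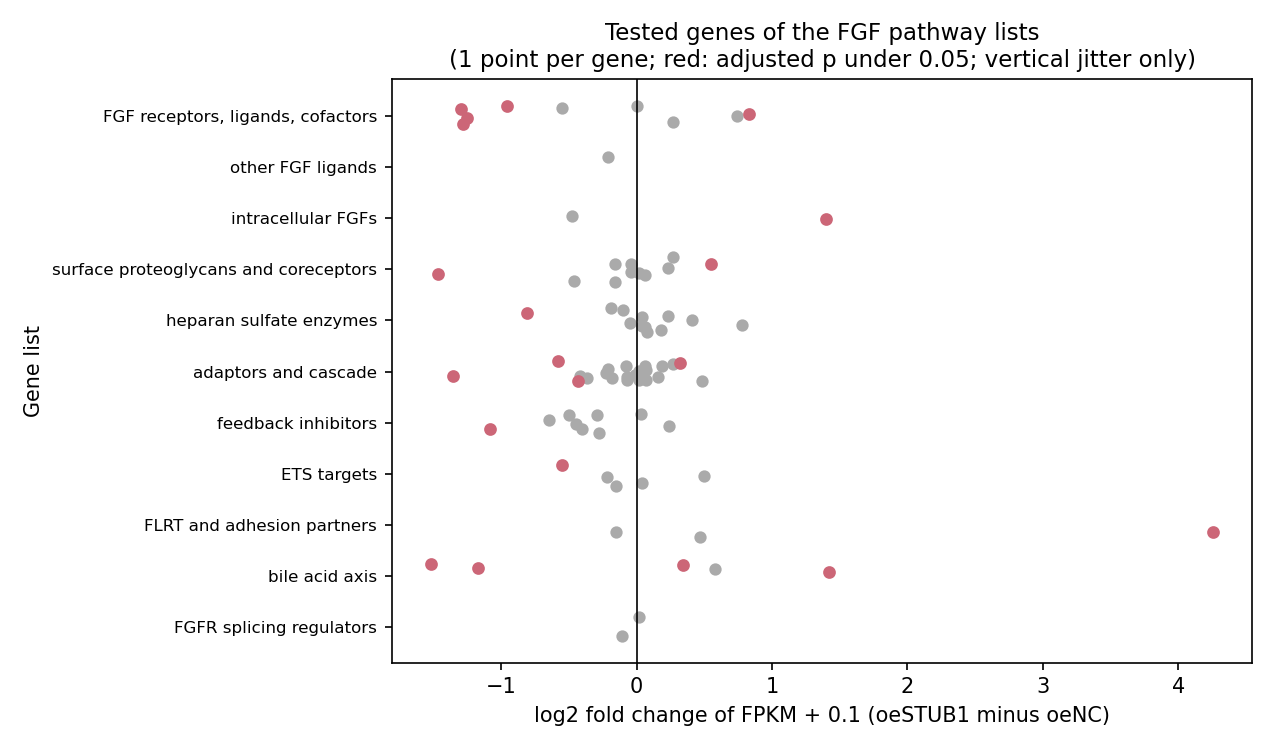
log2 fold change (oeSTUB1 minus oeNC, on the scale of log2(FPKM + 0.1)) of each tested gene of the 10 FGF genes and of 10 further pathway lists, 1 point per gene, with jitter along the vertical axis only; red marks an adjusted p-value under 0.05. The point at 4.26 is CDH2, and most adaptors and heparan sulfate enzymes lie close to 0.

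Hardly any other secreted FGF was expressed. Of 16 ligand genes 11 were listed and 1, FGF20, was tested, with no detected change (log2 fold change -0.21, limma adjusted p = 0.73), and no ligand of this list exceeded 0.222 FPKM in any library. FGF2 was the only secreted ligand examined with a mean above 1 FPKM in either group. Among the 4 intracellular FGF homologues, which do not act as receptor ligands, FGF12 rose from 0.0920 ± 0.0235 to 0.404 ± 0.0437 FPKM (SD, n = 3 each, log2 fold change 1.40, limma adjusted p = 0.0047). FGF11 did not pass the test (log2 fold change -0.48).

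Heparan sulfate proteoglycans act as cofactors of FGF binding. Of 15 surface cofactors 11 were tested, 1 rose and 1 fell, or 18.2%, against 13.6% of all genes tested. SDC2, which encodes syndecan 2, had 3.30, 3.45 and 3.30 FPKM in oeNC libraries and 1.08, 1.08 and 1.29 FPKM in oeSTUB1 libraries, with no overlap (log2 fold change -1.47, limma adjusted p = 0.00033). The glypican gene GPC6 rose by a log2 fold change of 0.55 (limma adjusted p = 0.041). The more abundant SDC1, GPC1 and AGRN had log2 fold changes of 0.02, -0.04 and -0.04. KL, the gene of the other Klotho coreceptor, was at most at 0.00574 FPKM. Of 13 heparan sulfate enzymes 12 were tested and 1 changed, or 8.33%. This was the heparanase gene HPSE, which fell by 0.81 on the log2 scale (limma adjusted p = 0.0079).

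Of 22 adaptor and cascade genes, all tested, 1 rose and 3 fell, or 18.2%, where 13.6% of all genes tested changed. GAB2, a docking protein that recruits SHP2 and PI3K, had 2.53, 2.40 and 3.25 FPKM in oeNC libraries and 1.25, 0.627 and 1.22 FPKM in oeSTUB1 libraries (log2 fold change -1.36, limma adjusted p = 0.012). Its lowest value belonged to oeSTUB1 replicate 2, in which long genes were lower, and GAB2 has a recovered length of 7272 bases. The part of gene length in the size of this fall was not tested. MAPK3, which encodes the kinase ERK1, fell by 0.43 on the log2 scale, and MAP2K1, which encodes MEK1, rose by 0.32 (limma adjusted p = 0.028 and 0.033). Of the 22 genes, 18 did not pass the test.

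Feedback inhibitors and ETS factors are induced by FGF receptor signalling among other inputs. Of 9 tested feedback inhibitors 1 fell, where 6.59% of all genes tested fell. The median log2 fold change was -0.40 over the list and 0.02 over all genes tested. SPRED3 had 1.44, 1.52 and 1.29 FPKM in oeNC libraries and 0.668, 0.473 and 0.735 FPKM in oeSTUB1 libraries (log2 fold change -1.08, limma adjusted p = 0.0072). In SPRED2, DUSP5 and IL17RD the groups did not overlap and oeSTUB1 was lower, but the test was not passed (limma adjusted p = 0.11, 0.056 and 0.10). With SPRED3 these are 4 of the 9 feedback inhibitors tested, where 17.3% of all genes tested were lower without overlap. DUSP6, a phosphatase of ERK, had 2.39, 2.76 and 6.02 FPKM in oeNC libraries and 2.81, 2.79 and 2.81 FPKM in oeSTUB1 libraries. The high value belonged to oeNC replicate 3, which also had 4.01 FPKM of EGR1 against 0.395 and 0.487 FPKM in the other oeNC libraries. That library was also the highest oeNC library for SPRY1, SPRY2, SPRY4, SPRED1, SPRED2 and DUSP5, but not for SPRED3 or IL17RD. For DUSP5 it had 19.8 FPKM, against 14.5 and 15.4 FPKM in the other oeNC libraries. The part of this library in the list median was not tested. Of 5 ETS and immediate early targets ETV4 fell, from 23.2 ± 1.52 to 15.9 ± 1.47 FPKM (SD, n = 3 each, log2 fold change -0.55, limma adjusted p = 0.0088), while ETV5, at -0.15 (limma adjusted p = 0.27), and ETV1, at 0.04 (limma adjusted p = 0.90), did not pass the test. FOSL1, a target of ERK signalling, was higher without overlap, with 4.89, 5.19 and 5.63 FPKM in oeNC libraries and 7.72, 8.77 and 6.07 FPKM in oeSTUB1 libraries, and had a log2 fold change of 0.50 that did not pass the test (limma adjusted p = 0.055).

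Of 6 adhesion proteins that bind FGF receptors 3 were tested and 1 changed, where 13.6% of all genes tested changed. CDH2, whose product N-cadherin binds FGFR1, had 0.409, 0.302 and 0.291 FPKM in oeNC libraries and 9.70, 7.77 and 7.20 FPKM in oeSTUB1 libraries (log2 fold change 4.26, limma adjusted p = 2.2e-05). FLRT3 had a log2 fold change of 0.47 that did not pass the test (limma adjusted p = 0.089).

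Of 14 genes of bile acid synthesis, sensing and transport, 5 were tested, and 2 rose and 2 fell. Over all genes tested 7.01% rose and 6.59% fell. NR1H4, which encodes the bile acid receptor FXR that induces FGF19, had 1.49, 1.48 and 1.53 FPKM in oeNC libraries and 0.468, 0.364 and 0.560 FPKM in oeSTUB1 libraries (log2 fold change -1.52, limma adjusted p = 0.0012). SLC51B, a bile acid transporter subunit and a target of FXR, was lower, at 4.67, 3.50 and 5.26 FPKM against 1.44, 2.34 and 2.07 FPKM (log2 fold change -1.17, limma adjusted p = 0.010). FABP6, also tested, had a log2 fold change of 0.58 that did not pass the test (limma adjusted p = 0.56). ABCB11 and NR0B2 were too low to be tested, at most at 0.0191 and 0.0179 FPKM. NR5A2, a nuclear receptor that drives bile acid synthesis genes, rose from 3.63 ± 0.166 to 9.92 ± 0.851 FPKM (SD, n = 3 each, log2 fold change 1.42, limma adjusted p = 0.00018), and RXRA, the partner of FXR, rose by a log2 fold change of 0.34 (limma adjusted p = 0.030). CYP7A1, the rate-limiting enzyme of bile acid synthesis, was not listed.

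The genes next to the 3 receptors with a log2 fold change below -1 were compared with them. Next to FGFR4, the genes UIMC1, ZNF346, NSD1 and RAB24 had log2 fold changes of 0.05, 0.02, -0.13 and -0.18. Next to FGFR3, TACC3, LETM1 and NSD2 had 0.06, 0.31 and -0.11, and LOC112268460 had 0.66. None of these 8 genes passed the test. Next to FGFR2, ATE1 fell by 0.36 (limma adjusted p = 0.046), NSMCE4A was at -0.09 (limma adjusted p = 0.68), and the low-expressed LOC105378520 and LOC105378521 fell by 1.16 and 1.12 on the log2 scale (limma adjusted p = 0.039 and 0.037).

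Among the 11375 genes whose mean reached 1 FPKM, those whose log2(FPKM + 0.1) was most like that of FGFR4 over the 6 libraries were RTN4RL2, TM4SF4 and PKDCC, with Pearson r of 0.9993, 0.9988 and 0.9985. They fell by 2.06, 1.46 and 1.28 on the log2 scale. The 6 points fall into the 2 groups, so that this likeness is mostly the group difference that these genes share.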

How the data were processed

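RNA-seq of 3 oeNC and 3 oeSTUB1 libraries of TFK1 cells was analysed. The authors deposited FPKM values for 23569 genes in 1 table, with 1 column per library, matched to the labels by name. The submitters' processing notes list fastp 0.20.1, HISAT2 2.1.0, HTSeq 0.11.2, R 3.2.0, DESeq2 and GRCh38.p13 without their roles, and the annotation is not given in the sources used here. Value columns of no mapped sample numbered 0.

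Whole fragments were recovered from the deposited FPKM values. FPKM is a whole number of fragments divided by gene length and library total, so totals and lengths were taken at which all fragments are whole (23569 genes, largest difference from the deposited values 4.9e-06). The smallest whole length was taken, so that a gene whose fragment numbers share a divisor is given too few. How fragments on overlapping genes were counted is not given in the sources used here.

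log2(FPKM + 0.1) entered limma 3.58.1 (R 4.3.3), with lmFit and a trended eBayes step and two-sided p-values, for the 15353 genes whose mean reached 0.1 FPKM, with Benjamini-Hochberg adjustment over all of them. Sums and shares were compared by two-sided exact permutation tests. On simulated data with 200 genes changed 4-fold, 200 were called with the right sign among 15363 tested, with 15 unchanged genes called, and the fragments of 98.67% of 22657 genes were recovered. The genes changed there had a mean of at least 1 FPKM, and the same spread beyond counting was set for all genes. No library was made to stand apart, as oeSTUB1 replicate 2 did. The simulation therefore does not cover smaller changes, lower genes or such a library. The 10 genes, the pathway lists and the tests were chosen with earlier results of these data known, so that no list is independent evidence. The genes named are these 10, the genes of each list that changed with a log2 fold change beyond 1 in size (at most 4 per list), the 2 tested genes on each side of a member that passed both, and the 3 genes most like the member with the smallest p. Others are marked as chosen after their values were seen. Positions are from GENCODE release 29 (GRCh38), and gene order and promoter windows from RefSeq (GRCh38.p14). The alternatives used a pseudocount of 1 or 0.01, dropped the filter or raised it to 1 FPKM, or used median-ratio and quantile scaling, an eBayes step with no trend, a replicate block, limma-voom on recovered fragments, or 5 libraries in place of 6. The sequencing reads were not used here. Python 3.11.15 was used for the other steps. The values of 1 gene of the adaptor and cascade list are not reported here.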

Additional observations from a re-analysis of the deposited data

How the results depend on the processing

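The calls of FGFR1, FGFR2, FGFR3, FGFR4 and FGF2 were kept in direction and at an adjusted p-value under 0.05 from limma in the 15 alternatives, with log2 fold changes of -1.05 to -0.93, -1.48 to -0.87, -1.38 to -1.13, -1.32 to -1.16 and 0.71 to 0.91. FGFBP1 was called in 2 of 14 alternatives, FRS2 in 1 of 15 (without oeSTUB1 replicate 2) and KLB in 0 of 14. The number of changed genes among the 9 was 5 or 6. The number with an absolute log2 fold change over 1 was 2 to 4, and was 2 with a pseudocount of 1. FGFRL1, near 0, turned its sign without oeNC replicate 2 (0.01), without oeSTUB1 replicate 1 (0.02) and without oeSTUB1 replicate 2 (0.06), in a range of -0.09 to 0.06 over the libraries left out. Of the other pathway genes, 9 to 28 changed when single libraries were left out, against 15 with all libraries. The cause was not tested, and each of these fits had 5 libraries in place of 6. With a pseudocount of 1, the number of all genes with an absolute log2 fold change over 1 was 240 against 798. The replicate numbers did not pair the libraries (correlations of same-numbered deviations -0.05, -0.05 and 0.06). With the replicate block 5 of the 9 genes and 13 of the other pathway genes changed, and 1488 of all genes against 2088. With the block, FGFR1 had a log2 fold change of -0.96 (limma adjusted p = 0.002). The sum and shares of the receptors kept their directions in the 7 alternatives run for them. Genes under about 0.1 FPKM, FGF19 among them, are limited by depth.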
